A study of Mus musculus with 12 samples.

Results

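The Hedgehog pathway genes described here are 9 genes chosen by symbol, Shh, Ihh, Ptch1, Boc, Hhip, Smo, Gli1, Gli2 and Gli3, and all 9 were found among the 52550 genes of the count table. They were followed over 12 bulk RNA sequencing libraries of whole lung, each from 1 neonatal mouse on a C57Bl/6J background. WT (Adm+/+) mice and Adm+/- mice, which carry 1 working copy of the gene for the vasodilator peptide adrenomedullin in every cell, received intraperitoneal injections of phosphate-buffered saline (PBS) or of 6 mg/kg lipopolysaccharide (LPS) from Escherichia coli O55:B5. LPS is a bacterial endotoxin that provokes systemic inflammation and is used here to model bronchopulmonary dysplasia, a chronic lung disease of preterm infants. Injections were given once daily for 3 days from postnatal day 3, and the lungs were frozen on postnatal day 5, 6 h after the last dose. The groups of 3 libraries are WT PBS (libraries 3, 4 and 5), WT LPS (9, 10 and 11), Adm+/- PBS (6, 7 and 8) and Adm+/- LPS (1, 2 and 12), numbered as in the sample labels.

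Hedgehog signaling works by relief of inhibition. In the absence of a ligand, the receptor Ptch1 keeps the membrane protein Smo inactive, and the transcription factors Gli2 and Gli3 are cut into repressors at the primary cilium. When Sonic hedgehog (Shh) or Indian hedgehog (Ihh) binds Ptch1 with the help of co-receptors such as Boc, Smo enters the cilium, full-length Gli proteins reach the nucleus, and target genes are transcribed. Gli1, Ptch1 and Hhip are themselves targets, so that their transcripts are widely read as a measure of pathway activity, while Ptch1 and Hhip also bind and restrain the ligand. In the developing lung the epithelium makes Shh and the surrounding mesenchyme responds to it, and the pathway is known for its part in airway branching, in the growth of mesenchyme and smooth muscle, and in the cartilage of the large airways.

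Values are CPM, counts set relative to the size of each library after scaling by the trimmed mean of M values (TMM), and a gene was called changed where edgeR's quasi-likelihood test gave a Benjamini-Hochberg adjusted p below 0.05 over all 15885 protein-coding genes tested and the log2 fold change was above 0.5 in size. Total counts were 22382535 to 38062873 per library. In WT PBS 5 and Adm+/- PBS 6 protein-coding genes held 77.8% and 80.1% of all counts, against 84.3% to 87.6% in the other libraries. The WT LPS libraries stood apart through genes of other tissues. Their skeletal muscle genes, led by Myh8, Acta1 and Mylpf, summed to 595 to 1775 CPM against 7.94 to 34.3 CPM in the other groups, and their squamous epithelium genes, led by Krt4, Krt13 and Krt5, summed to 3117 CPM in library 9 and 1584 CPM in library 11 but to 26.6 CPM in library 10. Adm itself was 3.96, 7.09 and 4.57 CPM in WT PBS, 7.77, 8.15 and 4.46 CPM in WT LPS, 4.58, 2.87 and 3.62 CPM in Adm+/- PBS and 3.74, 6.28 and 3.92 CPM in Adm+/- LPS. The Adm+/- means were 70.5% (PBS) and 68.3% (LPS) of the WT ones by the fit, and the groups overlapped (adjusted p = 0.999 and 0.480). Because the tissue is whole lung, fewer cells of a type and less RNA per cell cannot be told apart in any value below.

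Promoters of 6 members were held by the RefSeq table used here (build GRCm38.p6, 250 bases before to 50 bases after a transcription start). Shh, Gli1 and Boc were not among them. Gli2 is shown because it had the largest fold change of the members, and Ptch1 and Hhip because they are textbook targets of the Gli proteins. Each is written 5′ to 3′ on the strand of the gene, and capitals mark the one match to ACCACCC, the core of the Gli binding consensus, which is read here on the opposite strand and starts at position -205 from the start of Gli2. The windows lie at chr1:119053570-119053869 (Gli2), chr13:63565686-63565985 (Ptch1) and chr8:80057959-80058258 (Hhip), all on the minus strand.
Gli2: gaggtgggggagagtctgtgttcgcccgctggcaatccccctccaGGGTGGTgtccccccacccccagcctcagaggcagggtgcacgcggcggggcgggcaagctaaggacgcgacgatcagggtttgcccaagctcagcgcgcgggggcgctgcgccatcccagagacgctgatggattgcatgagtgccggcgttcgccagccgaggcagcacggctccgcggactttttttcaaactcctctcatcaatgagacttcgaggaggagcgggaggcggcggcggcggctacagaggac
Ptch1: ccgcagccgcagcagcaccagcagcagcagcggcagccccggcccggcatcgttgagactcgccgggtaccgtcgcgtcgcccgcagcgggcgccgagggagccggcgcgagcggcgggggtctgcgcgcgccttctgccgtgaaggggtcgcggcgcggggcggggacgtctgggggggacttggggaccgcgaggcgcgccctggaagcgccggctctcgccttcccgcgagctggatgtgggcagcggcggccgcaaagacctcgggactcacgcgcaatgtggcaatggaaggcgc
Hhip: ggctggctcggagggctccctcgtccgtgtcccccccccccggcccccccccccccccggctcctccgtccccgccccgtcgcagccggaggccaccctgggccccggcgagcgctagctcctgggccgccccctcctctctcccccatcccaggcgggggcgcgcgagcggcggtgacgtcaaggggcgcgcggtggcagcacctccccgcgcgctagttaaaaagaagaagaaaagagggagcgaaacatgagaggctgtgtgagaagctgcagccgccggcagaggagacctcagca
The full consensus GACCACCCA, which contains the core, was found on neither strand in any of the 6 windows, and 0.253% of all 32851 promoters of the table hold it. The core is held by 4.61% of all promoters and, of the 6 windows, by that of Gli2. All 6 windows were rich in G and C, from 67.3% in Gli2 to 76.3% in Ptch1, against a median of 52.7% over all promoters. The Ptch1 window belongs to a start inside the gene as Gencode M21 draws it, so it covers 1 of several starts. No match says only that these letters are not in these windows.

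Levels were compared between members per kb of exon. In WT PBS lungs Hhip (31.2 ± 6.45 CPM per kb, SD, n = 3), Smo (27.3 ± 8.62), Boc (27.0 ± 3.15) and Ptch1 (23.8 ± 1.90) were the highest, and the libraries of these neighbors overlapped. Shh followed at 12.1 ± 2.01 CPM per kb and overlapped with none of the others. Gli1 (7.68 ± 1.08 CPM per kb) lay above Gli2 (5.47 ± 0.985) in every library, while Gli2 and Gli3 (5.45 ± 0.928) overlapped. Ihh was at 0.108 ± 0.0575 CPM per kb. In WT LPS lungs the order at the top was Boc (29.6 ± 2.51 CPM per kb), Hhip (21.9 ± 7.06), Ptch1 (19.5 ± 5.99) and Smo (14.5 ± 1.99), and Gli3 (3.65 ± 0.403) stood before Gli2 (2.86 ± 0.571) with ranges that overlapped.

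**Figure D1:**
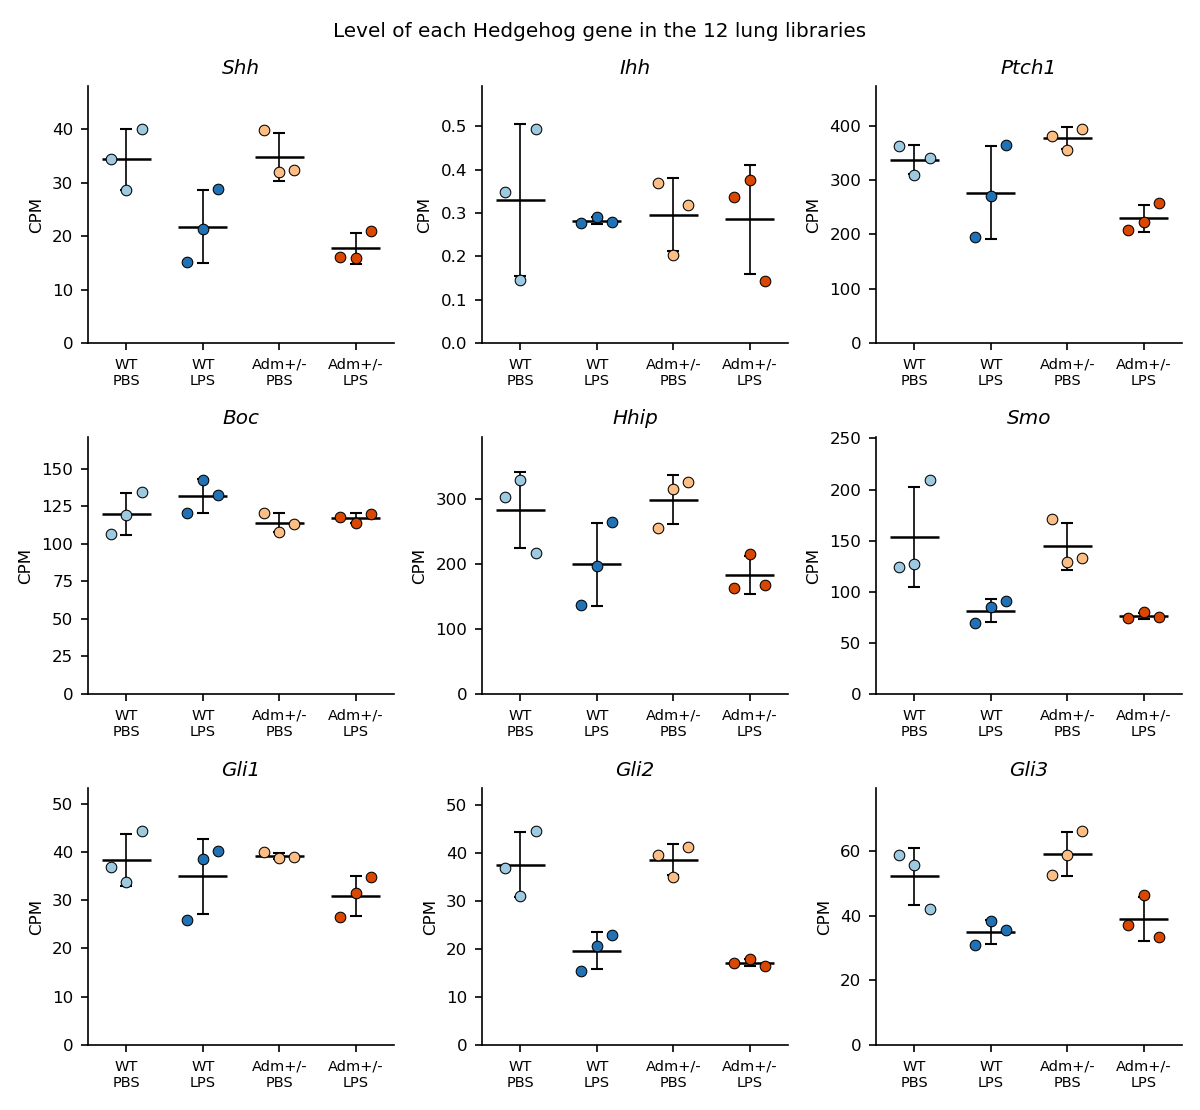
CPM of each of the 9 members (vertical axes, from 0, 1 scale per gene) in the 12 libraries, by genotype and treatment; points are libraries, horizontal bars group means and whiskers 1 SD (n = 3). Smo, Gli2 and Gli3 lie lower after LPS without overlap in both genotypes, Gli1 in WT and Boc in both genotypes overlap, and Ihh stays below 0.5 CPM throughout.

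LPS exposure of WT lungs lowered the signal transducer Smo and the transcription factors Gli2 and Gli3, with log2 fold changes of -0.91, -0.93 and -0.58. The ligand Shh and the inhibitor Hhip were lower in the mean without passing the test, and the receptor Ptch1, the target Gli1 and the co-receptor Boc moved by less than 0.3 on the log2 scale. In Adm+/- lungs LPS lowered 6 members, Shh, Ptch1, Smo, Gli2, Gli3 and Hhip, again with Gli2 furthest, at -1.17. No member rose in either genotype. Of the 8 members that passed the filter on low counts, 3 were called lower in WT, where 7.09% of all tested genes were called lower and 10.5% higher, and 6 in Adm+/-, where 12.2% were called lower and 12.8% higher. Of these, Smo, Gli2 and Gli3 were called lower in both genotypes, as were 5.85% of all tested genes. The median log2 fold change of the 8 members was -0.54 in WT and -0.71 in Adm+/-, beside 0.0091 and -0.013 over all tested genes. Libraries of the LPS group all lay below those of the PBS group for 3 members in WT and for 7 in Adm+/-, against 17.9% and 27.1% of all tested genes.

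Of the ligands among the members, Shh (chromosome 5, 28456815 to 28467256 of mm10, minus strand) could be measured. Its level was 34.4, 28.6 and 40.1 CPM in WT PBS and 15.2, 21.3 and 28.8 CPM in WT LPS, so that the highest LPS library reached the lowest PBS library. In Adm+/- it was 39.9, 31.9 and 32.4 CPM with PBS and 16.2, 15.9 and 21.1 CPM with LPS, with a clear gap between the groups. The log2 fold change was -0.66 ± 0.22 (standard error) in WT with adjusted p = 0.0519, and -0.97 ± 0.22 in Adm+/- with adjusted p = 0.00653, which corresponds to 63.4% and 51.0% of the PBS level. The WT value turned on single libraries, with -0.91 (adjusted p = 0.0136) without WT LPS 11 and -0.46 without WT LPS 9, and it was called by DESeq2 (adjusted p = 0.0242) and limma-voom (adjusted p = 0.0411). Ihh (chromosome 1, 74945315 to 74951672, minus strand) had 3 to 9 counts per library, did not pass the filter and was not tested, and its group means lay between 0.282 and 0.330 CPM. At that depth 1 count is worth 0.0308 to 0.0618 CPM, and a change of Ihh was not detectable.

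Among the receptors, Ptch1 (chromosome 13, 63508328 to 63573598, minus strand) was at 363, 309 and 340 CPM in WT PBS and at 196, 270 and 365 CPM in WT LPS. These WT LPS libraries spanned the PBS level, with library 9 lowest and library 11 highest. Adm+/- libraries were at 381, 355 and 394 CPM with PBS and at 208, 224 and 257 CPM with LPS and did not overlap. The log2 fold change was -0.29 ± 0.18 in WT (adjusted p = 0.276) and -0.71 ± 0.18 in Adm+/- (adjusted p = 0.0123). Without WT LPS 11 the WT value was -0.54 and called (adjusted p = 0.0331), without WT LPS 9 it was -0.093, and the Adm+/- call was lost without Adm+/- LPS 1 (-0.65, adjusted p = 0.0534). Boc (chromosome 16, 44485049 to 44558897, minus strand), which presents ligand to Ptch1, was at 106, 119 and 134 CPM in WT PBS, 120, 143 and 133 CPM in WT LPS, 120, 108 and 113 CPM in Adm+/- PBS and 118, 114 and 120 CPM in Adm+/- LPS. Its groups overlapped after LPS in both genotypes, and the 95% intervals of its log2 fold change, -0.092 to 0.36 in WT and -0.19 to 0.27 in Adm+/-, hold no change of the size seen for Smo or Gli2.

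Hhip (chromosome 8, 79965851 to 80058006, minus strand), a membrane-bound decoy that binds the ligand, was at 303, 329 and 217 CPM in WT PBS and at 136, 197 and 264 CPM in WT LPS. The groups overlapped through WT PBS 5 and WT LPS 11. In Adm+/- it was at 255, 314 and 326 CPM with PBS and at 163, 216 and 168 CPM with LPS, with no overlap. The log2 fold change was -0.51 ± 0.23 in WT (adjusted p = 0.131) and -0.71 ± 0.23 in Adm+/- (adjusted p = 0.0351). Without WT LPS 11 Hhip was also called in WT (-0.77, adjusted p = 0.0373), without WT LPS 9 its WT value was -0.30, and the Adm+/- call was lost without any one of Adm+/- PBS 7 or 8 or Adm+/- LPS 1 or 12, with values from -0.67 to -0.64.

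Smo (chromosome 6, 29735503 to 29761365, plus strand), the transducer that Ptch1 holds in check, was at 124, 127 and 209 CPM in WT PBS and at 69.1, 84.9 and 90.6 CPM in WT LPS. Adm+/- libraries were at 171, 129 and 133 CPM with PBS and at 74.2, 79.9 and 75.7 CPM with LPS. All 6 LPS libraries thus lay below all 6 PBS libraries, and the highest PBS values were those of WT PBS 5 and Adm+/- PBS 6. Its log2 fold change was -0.91 ± 0.20 in both genotypes, with adjusted p = 0.00800 in WT and 0.00490 in Adm+/-. Without WT PBS 5 the WT value was -0.63, still called.

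Of the Gli factors, Gli2 and Gli3 were called lower in both genotypes and Gli1 in neither, and no test compared these genes with each other. Gli2 (chromosome 1, 118834132 to 119053619, minus strand), the main activator of the family, was at 36.9, 31.1 and 44.6 CPM in WT PBS and at 15.3, 20.7 and 22.9 CPM in WT LPS. In Adm+/- it was at 39.6, 35.1 and 41.2 CPM with PBS and at 17.1, 17.9 and 16.4 CPM with LPS. Gli2 thus separated the treatments in every library of both genotypes, at 52.3% and 44.4% of the PBS level, and fell by 0.93 ± 0.16 on the log2 scale in WT (adjusted p = 0.00299) and by 1.17 ± 0.17 in Adm+/- (adjusted p = 4.25e-04). Gli3 (chromosome 13, 15463235 to 15730026, plus strand), the main repressor, was at 58.9, 55.7 and 42.1 CPM in WT PBS, 30.8, 38.5 and 35.8 CPM in WT LPS, 52.6, 58.8 and 66.4 CPM in Adm+/- PBS and 37.3, 46.5 and 33.5 CPM in Adm+/- LPS. It fell by 0.58 ± 0.16 on the log2 scale in WT (adjusted p = 0.0271) and by 0.60 ± 0.16 in Adm+/- (adjusted p = 0.0158). Both calls of Gli3 hung on single libraries. The WT call of Gli3 was lost without any one of WT PBS 3 or 4 or WT LPS 9 or 11 (values of -0.60 to -0.49), and the Adm+/- call without any one of Adm+/- PBS 8 or Adm+/- LPS 1 or 12 (-0.57 to -0.50).

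Gli1 (chromosome 10, 127329882 to 127341974, minus strand), both a Gli factor and the most used target of the pathway, was at 36.9, 33.8 and 44.4 CPM in WT PBS and at 25.9, 38.5 and 40.3 CPM in WT LPS. Only library 9 of the WT LPS group lay below the PBS range. In Adm+/- Gli1 was at 39.9, 38.8 and 38.9 CPM with PBS and at 26.5, 31.5 and 34.7 CPM with LPS, which did not overlap. Its log2 fold change of -0.14 ± 0.17 in WT (adjusted p = 0.585, 95% interval -0.51 to 0.23) and -0.34 ± 0.17 in Adm+/- (adjusted p = 0.145, interval -0.71 to 0.026) passed the test in neither. The WT value turned to 0.034 without WT LPS 9. The 3' end of Gli1, which has 4995 exon bases, overlaps Arhgap9 on the opposite strand from 127329882 to 127329943. Arhgap9 as a whole had 14.3 to 36.4 CPM. Shh shares bases with 9530036O11Rik and Gm26894, whose group means did not pass 2.74 CPM, and Gli3 with Gm6556, whose group means did not pass 1.40 CPM. The strand option of the counting is not given in the sources used here, so reads of such pairs may not have been told apart.

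In CPM per kb, the share of Gli1 in the sum of the Gli genes was 39.1% to 44.9% in WT PBS and 48.8% to 53.3% in WT LPS, and 37.6% to 41.5% in Adm+/- PBS and 45.4% to 54.2% in Adm+/- LPS. The share of Gli2 moved the other way, from 26.5% to 32.8% down to 20.4% to 22.1% in WT and from 26.9% to 29.9% down to 18.6% to 21.3% in Adm+/-. The share of Gli3 overlapped between treatments in both genotypes. The ratio of Gli1 to Gli2 per kb was 1.30 to 1.52 in the PBS libraries and 2.13 to 2.91 in the LPS libraries. These shares and ratios are descriptions and were not tested.

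**Figure D2:**
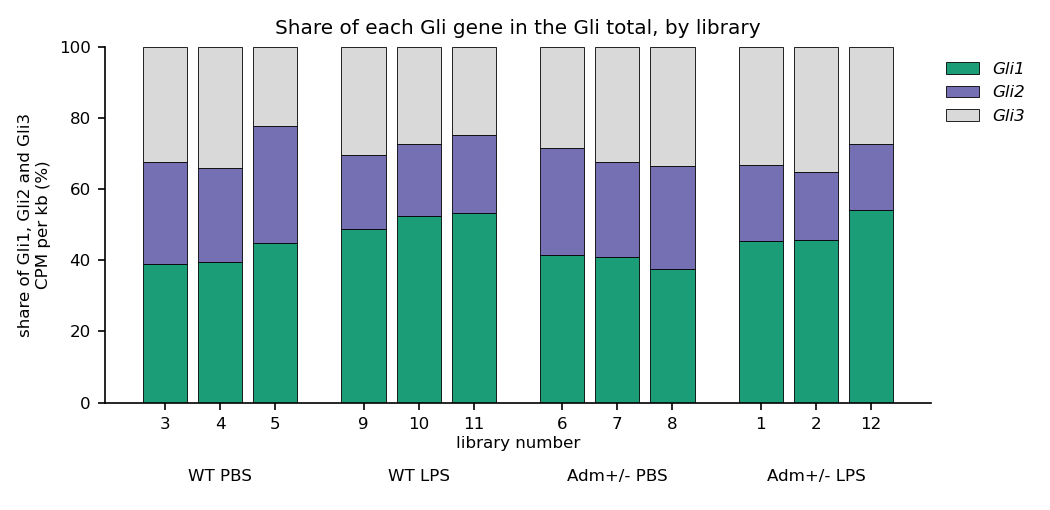
Share of Gli1, Gli2 and Gli3 in the sum of their CPM per kb (vertical axis, percent) for each of the 12 libraries (horizontal axis, library number, by group). The Gli2 segment is 26.5% to 32.8% in the 6 PBS libraries and 18.6% to 22.1% in the 6 LPS libraries, and the Gli1 segment is larger in every LPS library than in any PBS library.

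The calls depended on which libraries and thresholds were used. Against a fold threshold of 0.5 tested by glmTreat, Gli2 alone of the members was called, in both genotypes. Without WT LPS 9 and 11, both high in squamous genes, library 10 alone stood for the group and was assumed to vary like the others, and no member was called (Smo -0.85, Gli2 -0.86, Gli3 -0.44, with adjusted p = 0.164, 0.0511 and 0.402). Fitted on the 6 WT libraries only, Gli2 kept its call (adjusted p = 0.0402) while Smo (0.0542) and Gli3 (0.0837) lost theirs.

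**Figure D3:**
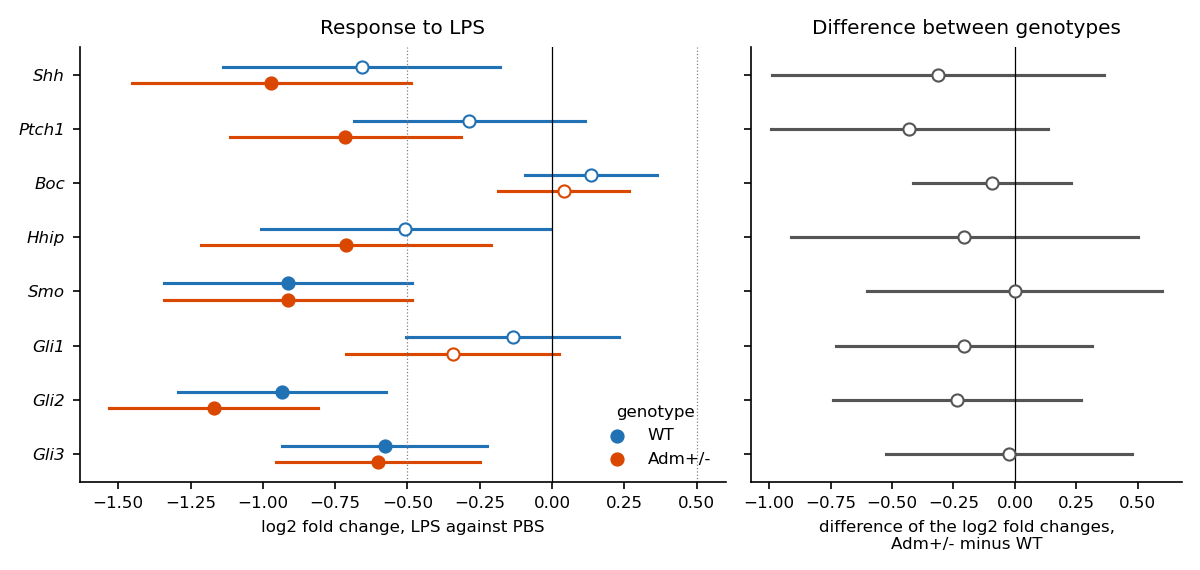
Log2 fold changes with 95% intervals (horizontal axes) for the 8 members tested; left, LPS against PBS in WT and Adm+/- lungs, with filled points for calls and dotted lines at the fold threshold of 0.5; right, the difference between the genotypes. All intervals of the difference include 0, and Gli2 lies farthest to the left in both genotypes, at -0.93 and -1.17.

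Whether the LPS response depended on genotype was asked with the difference of the responses, Adm+/- minus WT. No member was called, beside 0.145% of all tested genes, and none had an unadjusted p below 0.05, as 1247 of all tested genes did. All 8 differences were below 0, as were 51.2% over all tested genes, from -0.43 for Ptch1 (95% interval -0.99 to 0.13, adjusted p = 0.798) and -0.31 for Shh (interval -0.99 to 0.36) to -0.023 for Gli3 and -0.0013 for Smo, the sign of which turned with the size factors used. Without WT LPS 11 the difference was -0.18 for Ptch1 and -0.057 for Shh, and without WT LPS 9 it was -0.62 and -0.51. The intervals span about 0.6 on the log2 scale on either side for Smo (-0.60 to 0.60), which leaves room for a difference as large as the LPS effect on Gli3. That 6 members were called in Adm+/- and 3 in WT is therefore not a difference shown between the genotypes.

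Between the genotypes under PBS, no member was called, nor was any of the tested genes (0%), by edgeR, DESeq2 or limma-voom. None of the members had an unadjusted p below 0.05, and 344 of all tested genes did. Member log2 differences ran from -0.088 for Smo to 0.18 for Gli3, and all groups overlapped. Without WT PBS 5 these values were 0.20 for Smo and 0.049 for Gli3. Under LPS no member was called, beside 2.05% of all tested genes, and the differences ran from -0.30 for Shh to 0.16 for Gli3, with no member but 2275 of all tested genes at an unadjusted p below 0.05. Both ends turned on single libraries, since Shh was at -0.043 without WT LPS 11 and -0.50 without WT LPS 9, and Gli3 at 0.018 without Adm+/- LPS 2. Boc was the one member whose libraries did not overlap under LPS, by a narrow gap between 119.9 CPM, the highest Adm+/- library, and 120.3 CPM, the lowest WT library, with a log2 difference of -0.17 ± 0.10 (adjusted p = 0.534), and 24.6% of all tested genes did not overlap in this comparison.

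Cell type markers were counted in the same libraries. Over all tested genes, 7.09% were called lower and 10.5% higher in WT, and 12.2% and 12.8% in Adm+/-. Counts of 1 or 2 genes in lists this short are not read as a change of a cell type. The neutrophil list, led by S100a9, S100a8 and Csf3r, had 9 of 10 genes higher after LPS in WT and 10 in Adm+/-, and the monocyte and macrophage list, led by Csf1r, Mrc1 and Marco, 9 and 8 of 10. Endothelial genes, led by Cdh5, Pecam1 and Kdr, had 2 of 10 lower in each genotype and 1 higher in Adm+/-, ciliated and club cell genes, led by Scgb1a1, had 1 of 8 higher in each, mesothelial genes, led by Msln, 1 of 6 higher in each, and Schwann cell genes, led by Mbp, 2 of 6 higher in WT. The lung fibroblast list, led by Limch1, Npnt and Pdgfra, had 3 of 10 genes lower and 1 higher in WT and 4 lower and 1 higher in Adm+/-, and its summed level was 2806 to 3084 CPM in WT PBS, 2354 to 2593 CPM in WT LPS, 2638 to 2914 CPM in Adm+/- PBS and 2351 to 2603 CPM in Adm+/- LPS. The alveolar myofibroblast list, led by Eln, Tgfbi and Wnt5a, had 4 of 10 genes lower and 1 higher in WT and 5 lower and 1 higher in Adm+/-. The smooth muscle and pericyte list, led by Acta2, Myh11 and Notch3, had 1 of 10 lower in each genotype. Taken as log2 CPM minus the mean of the fibroblast list, Gli2 was lower after LPS by a mean of -0.68 in WT and -0.76 in Adm+/-, and Smo by -0.62 and -0.50, without overlap in either genotype. Gli2 and Smo also stayed without overlap relative to the myofibroblast, smooth muscle, type I and type II pneumocyte lists. Relative to the fibroblast list, Gli3 (-0.31 and -0.20) and Hhip (-0.28 and -0.31) overlapped between treatments in both genotypes, as did Gli1 (0.10 and 0.052), and Boc (0.39 and 0.45) was higher without overlap. Shh, which the epithelium makes, was lower without overlap in both genotypes relative to the type I list (-0.79 and -1.07), led by Ager, Emp2 and Akap5 (1 of 10 genes higher in WT and 2 in Adm+/-), and to the type II list (-0.77 and -1.15), led by Sftpc, Slc34a2 and Sftpb (1 higher in WT, 3 higher and 2 lower in Adm+/-). It was also lower without overlap in both genotypes relative to the lung fibroblast (-0.43 and -0.57) and smooth muscle (-0.59 and -0.59) lists, and overlapped relative to the myofibroblast list (-0.40 and -0.53). Ptch1 overlapped in WT relative to all 5 lists, and in Adm+/- it was lower without overlap relative to the fibroblast (-0.32), type I (-0.81) and type II (-0.90) lists and overlapped relative to the other two. These relative levels were not tested. No marker of these 5 lists was at 0 in all libraries, and the part of cell composition in the member values was not tested.

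Members also varied together among mice of the same group. As deviations of log2 CPM from the group mean over the 12 libraries, Shh went with Ptch1 (Pearson r = 0.883) and Gli1 (0.869), Ptch1 with Gli1 (0.823), and Gli3 with Hhip (0.769). For Shh and Gli3 r was -0.256 and for Smo and Gli3 -0.450, and none of these values was tested. These are descriptions over few libraries that share depth and scaling. By the same measure Wnt7a (0.972) and Fzd2 (0.964) were among the tested genes most like Shh. Those most like Gli1 were Fam81a (0.966), Col2a1 (0.962) and Klhl42 (0.957), those most like Ptch1 were Hspa2 (0.976), Ankrd63 (0.972) and Slc7a10 (0.962), and those most like Hhip were Peak1 (0.961), Map2 (0.946) and Trim36 (0.941). By levels rather than deviations, the leading genes were Banp (0.985), Fzd2 (0.984) and Rassf8 (0.982) for Shh, Gnaz (0.935), Jam3 (0.901) and Chadl (0.892) for Gli1, Tmeff2 (0.959), Rem2 (0.958) and Ankrd63 (0.954) for Ptch1, and Car8 (0.950), Nlrp10 (0.950) and Palld (0.948) for Hhip.

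Col2a1, the main collagen of cartilage, varied widely between libraries, at 30.4, 12.8 and 141 CPM in WT PBS, 0.616, 15.4 and 31.1 CPM in WT LPS, 20.7, 25.0 and 10.1 CPM in Adm+/- PBS and 1.76, 22.8 and 21.2 CPM in Adm+/- LPS. The cartilage list, led by Col2a1, Col11a2 and Col9a2, had 8 of 10 genes tested, none called in either LPS comparison. Its sum was 29.1 to 209 CPM in WT PBS, 12.6 to 68.2 CPM in WT LPS, 26.1 to 48.5 CPM in Adm+/- PBS and 15.3 to 47.2 CPM in Adm+/- LPS, and Matn1 had 0 counts in 5 libraries. The lowest sums were those of WT LPS 9 and Adm+/- LPS 1, which were also the libraries lowest in Gli1. Within groups the mean of the list moved with Gli1 (r = 0.937, Spearman rho = 0.902), Shh (r = 0.801), Gli2 (0.729), Ptch1 (0.714) and Smo (0.671). For Boc r was 0.470, for Hhip 0.248 and for Gli3 -0.125. Without the 2 libraries farthest out r was 0.898 for Gli1, 0.717 for Shh, 0.679 for Gli2, 0.489 for Ptch1 and 0.674 for Smo. It was then 0.372 for Boc, -0.251 for Hhip and -0.494 for Gli3. The values of Ptch1, Hhip and Gli3 thus rest in part on those libraries. Other lists moved with these genes as well. For Gli2 and Smo r was 0.848 and 0.838 with the smooth muscle and pericyte list (0.717 and 0.795 without the 2 libraries farthest out on it) and 0.815 and 0.784 with the Schwann cell list (0.682 and 0.552). For Shh it was 0.762 with the lung fibroblast list (0.541). With the ciliated and club cell list r was 0.443 for Shh, 0.525 for Ptch1 and 0.583 for Gli1, and 0.893, 0.823 and 0.842 without the 2 libraries farthest out on that list, which for Shh and Ptch1 is above the same value for cartilage. For Gli3 and Hhip it was 0.753 and 0.738 with the alveolar myofibroblast list (0.566 and 0.636). With the mean of the cartilage list as a covariate, an alternative added after the values had been seen, the LPS log2 fold change of Gli1 was -0.015 in WT (adjusted p = 0.932) and -0.34 in Adm+/- (adjusted p = 0.0200, under the fold threshold), that of Shh in WT was called at -0.53 (adjusted p = 0.0400), and Smo, Gli2 and Gli3 kept their calls in both genotypes.

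**Figure D4:**
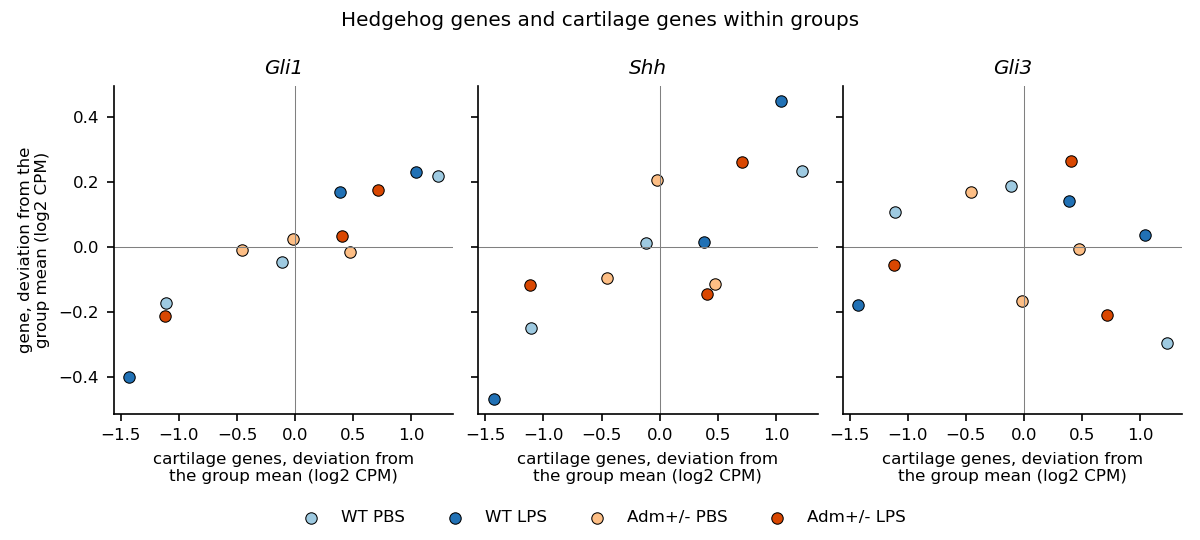
Deviation of Gli1, Shh and Gli3 from the group mean (vertical axes, log2 CPM) against the deviation of the mean of 8 cartilage genes (horizontal axes, log2 CPM) in the 12 libraries, colored by group. The points of Gli1 rise from lower left to upper right (r = 0.937), those of Shh do so more loosely (0.801), and those of Gli3 do not (-0.125).

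Beyond the members, 65 further genes of the pathway were examined in lists of ligand release, receptors, signal relay, cilium transport and mesenchymal response, and 63 were tested. In WT 16 were called lower and 3 higher, and in Adm+/- 20 lower and 3 higher, with median log2 fold changes of -0.25 and -0.28. Of all tested genes, 7.09% were called lower and 10.5% higher in WT, and 12.2% lower and 12.8% higher in Adm+/-. None was called for the difference of the responses or between genotypes. The WT count of 19 in all was 8 without WT LPS 9 and 5 without both 9 and 11.

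Of the 6 genes of ligand release, Hhat, which attaches palmitate to the ligand, was called lower in both genotypes (-0.61 and -0.64). Disp1, which exports the ligand, was at 15.8 ± 1.40 CPM in WT PBS and 11.7 ± 2.51 CPM in WT LPS (-0.44, adjusted p = 0.0658), and at 15.4 ± 1.23 and 8.88 ± 0.449 CPM in Adm+/- (-0.79, adjusted p = 0.00307). Scube1, a secreted carrier of the ligand, was called lower in WT (-0.65), and the most abundant gene of the list, Scube2, in neither genotype. Dhh, a ligand counted in this list, was not called either. It was at 6.74 ± 1.81 CPM in WT PBS, 5.57 ± 1.38 in WT LPS, 6.05 ± 0.188 in Adm+/- PBS and 5.06 ± 0.435 in Adm+/- LPS.

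Of the 7 receptors and co-receptors, Gas1 stood out as higher. It was at 25.7, 34.2 and 27.6 CPM in WT PBS against 56.2, 71.4 and 65.3 CPM in WT LPS, and at 26.4, 22.6 and 21.7 CPM in Adm+/- PBS against 57.1, 47.0 and 64.8 CPM in Adm+/- LPS. Gas1, a co-receptor with overlapping function to Boc and Cdon, thus rose by 1.14 ± 0.15 (adjusted p = 7.57e-04) and 1.26 ± 0.15 (adjusted p = 2.02e-04) on the log2 scale. Cdon was called lower in Adm+/- (-0.73, adjusted p = 0.0245) and the endocytic receptor Lrp2 higher in Adm+/- (0.55, adjusted p = 0.0376). Gpc3, the most abundant of the list, was not called.

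Of the 22 genes of signal relay and Gli processing, 4 were called lower and 1 higher in WT and 6 lower in Adm+/-. Evc, a ciliary partner of Smo, fell most, from 47.1 ± 20.4 to 23.0 ± 4.91 CPM in WT (-1.03, adjusted p = 0.0250) and from 43.1 ± 11.9 to 16.7 ± 1.47 CPM in Adm+/- (-1.36, adjusted p = 0.00433). Kif7 (-0.94 and -0.87), the kinesin that organizes the cilium tip, and Gpr161 (-0.59 and -0.65), a ciliary receptor that restrains the pathway, were called lower in both genotypes. The PBS means of Kif7 also leaned on WT PBS 5 (43.9 CPM, group median 23.6) and Adm+/- PBS 6 (34.7 CPM, group median 23.3). Arrb2 (0.81), an arrestin, was called higher in WT. Stk36 (-0.71), Iqce (-0.85) and Prkaca (-0.68), the catalytic subunit of protein kinase A that marks Gli proteins for cutting, were called lower in Adm+/-. Sufu, which holds Gli proteins in the cytoplasm, was lower by less than the fold threshold (-0.33, adjusted p = 0.0168, and -0.39, adjusted p = 0.00467), and Csnk1a1, the most abundant gene of the list, was not called.

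Of the 14 cilium transport genes tested, 4 were called lower in each genotype and none higher, and 13 were below 0 in each. Ift172 (-0.63 and -0.70), Kif3a (-0.60 and -0.68), a subunit of the motor that builds the cilium, and Tulp3 (-0.55 and -0.56), which ferries receptors into it, were called in both, Ift27 (-0.51) in WT and Hspb11 (-0.55), also a part of the transport particle, in Adm+/-. Dync2h1, the most abundant by its mean over all 12 libraries though below the mean of Ift172 in both PBS groups, was at 0.046 and -0.0034.

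The 14 genes tested that are known to respond to Hedgehog in mesenchyme held the largest folds of these lists, with 6 called lower and 1 higher in WT and 7 lower and 1 higher in Adm+/-. Foxf2, a forkhead factor of lung and gut mesenchyme, was at 90.0, 85.5 and 125 CPM in WT PBS against 30.2, 45.9 and 50.3 CPM in WT LPS, and at 130, 107 and 110 CPM in Adm+/- PBS against 40.4, 47.8 and 42.5 CPM in Adm+/- LPS. The treatments stayed far apart, and Foxf2 fell by 1.25 ± 0.19 on the log2 scale in WT (adjusted p = 0.00154) and by 1.41 ± 0.20 in Adm+/- (adjusted p = 3.80e-04). Foxl1 (-1.37 and -1.19), a second forkhead factor, and Bmp4 (-0.67 and -0.75), a mesenchymal growth factor, were called lower in both genotypes. So were Mycn (-1.80 and -1.62), Ccnd1 (-0.73 and -0.54) and Ccnd2 (-0.67 and -0.58), which drive cell division, and beside them the cell cycle list, led by Mki67, Top2a and Mcm6, had 2 of 12 genes called lower in each genotype and all 12 below 0. Prdm1 was called lower in Adm+/- (-0.75, adjusted p = 0.00173) and stood at 0.054 in WT, and the test of that difference did not pass (-0.80, adjusted p = 0.223). Osr1, a zinc finger factor of early lung mesenchyme, rose by 0.58 ± 0.17 (adjusted p = 0.0337) in WT and by 1.15 ± 0.17 (adjusted p = 5.86e-04) in Adm+/-. Foxf1, the closest relative of Foxf2, was at 0.076 and 0.17, and Tbx2, the most abundant of the list, at -0.73 and -0.67, with neither called.

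**Figure D5:**
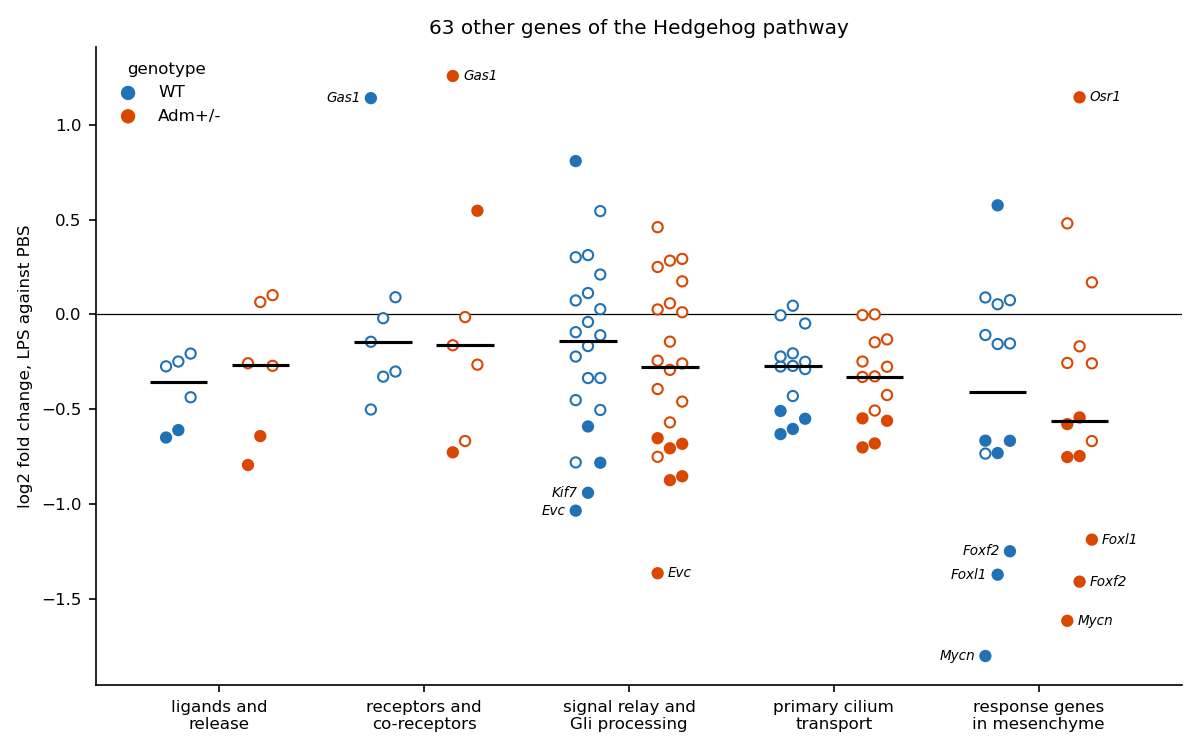
Log2 fold change of LPS against PBS (vertical axis) of the 63 other pathway genes tested, in 5 lists (horizontal axis), for WT and Adm+/- lungs; filled points are calls, black bars are list medians, and names are given for calls past 0.9. Mycn, Foxl1 and Foxf2 lie lowest in the response list and Osr1 highest, and Gas1 lies highest in the receptor list.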

How the data were processed

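RNA of 12 whole lungs was sequenced by the study after ribosomal RNA depletion with a directional kit. The authors aligned the reads to mm10 with HISAT2, counted them on Gencode genes with featureCounts and deposited the raw counts per gene used here, without normalization. The strand option and the Gencode release are not given in the sources used here. Positions, overlaps and exon lengths were taken from Gencode M21.

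The analysis ran in R (4.3.3). Of 21950 protein-coding genes, 15885 passed the filterByExpr function of edgeR (4.0.16). After TMM scaling, the quasi-likelihood test of that package was applied in 1 fit of all 12 libraries with 1 coefficient per group (8 residual degrees of freedom), with Benjamini-Hochberg adjustment over all tested genes in each of 5 contrasts. The method was checked on simulated data. Log2 CPM used a prior count of 2. Each replicate is 1 mouse, and no pair of libraries of a group agreed within sampling noise. Reads carry no molecular identifiers, so the value of 1 count covers counting error only.

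The members, the 5 pathway lists and the 15 marker lists were chosen with earlier results of these data known. Named are all members, list genes called in at least 1 contrast, the most abundant gene of each pathway list, the 3 genes most like Shh, Gli1, Ptch1 and Hhip by each measure, the 3 most abundant genes of a marker list, and Adm. Sufu, Foxf1, Matn1, Arhgap9, Dhh and Gm6556 were named after their values were seen. Nkx2-3 failed the filter, Tctn2 is not annotated as protein-coding, and Mosmo was found by its Ensembl ID. Some genes that this rule selects are not reported here, though the counts and medians of the lists include them.

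Alternatives covered RLE factors, DESeq2 (1.42.0), limma-voom (3.58.1), other filters and thresholds, all annotated genes, fewer libraries, each library left out, and, added after the values were seen, 2 WT LPS libraries left out together and a cartilage covariate.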

Additional observations from a re-analysis of the deposited data

How the results depend on the processing

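No paired analysis was run, because the library numbers are serial over all groups and do not pair mice between them. Of the 8 members tested in 5 contrasts, most values kept their direction and side of the threshold under RLE factors, DESeq2, limma-voom, other filters and all annotated genes; Shh in WT was called by DESeq2 (-0.65) and limma-voom (-0.70). The number of members called in WT, 3, became 1 with only the libraries of the comparison, 1 with glmTreat against 0.5, and 0 without both WT LPS libraries with squamous genes, and ran from 2 to 5 when each library was left out in turn. The number in Adm+/-, 6, became 1 with glmTreat and ran from 3 to 6 when each library was left out. Of the other pathway genes, 19 were called in WT, 7 with only the libraries of the comparison, 4 with glmTreat, 5 without both WT LPS libraries with squamous genes, and 8 to 21 when each library was left out. In Adm+/- 23 were called, 7 with glmTreat and 16 to 27 when each library was left out. No member was called for the difference of the responses or between genotypes under any alternative run.

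No value that passed the test changed its sign, and the following ones that did not pass did. The difference of the responses of Smo was 0.0045 with RLE factors, 0.0045 with DESeq2 and 0.021 with all annotated genes, and that of Gli3 0.036 without both PBS libraries that stand apart. Between genotypes in PBS, Shh was -0.0070 with all annotated genes, and Smo 0.067 without both PBS libraries that stand apart and 0.071 with the cartilage covariate. Gli1 in WT was 0.00668 without both WT LPS libraries with squamous genes. When each library was left out, the difference of the responses ran from -0.28 to 0.13 for Smo, -0.16 to 0.12 for Gli3 and -0.41 to 0.057 for Hhip. The difference between genotypes in PBS ran from -0.10 to 0.14 for Shh, -0.051 to 0.15 for Gli1, -0.077 to 0.18 for Gli2, -0.22 to 0.20 for Smo, -0.081 to 0.20 for Hhip and -0.16 to 0.012 for Boc. Gli1 after LPS in WT ran from -0.25 to 0.034, and Hhip between genotypes in LPS from -0.33 to 0.13. The cause was not tested, beyond the smaller number of libraries in those fits. Ihh, at 3 to 9 counts per library, is below what this depth can compare.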
